A study of Homo sapiens with 6 samples.

Results

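Transcripts of 6 genes, HLA class I heavy chains and B2M, were followed in NCI-H292, an established line from a pulmonary mucoepidermoid carcinoma, through 20 of the array's 54675 probe sets. A probe set is a group of short probes read out as 1 signal, and the 20 were those whose annotated gene symbol was HLA-B, HLA-C, HLA-E, HLA-F, HLA-G or B2M. The rule for membership was the symbol alone. HLA-C and HLA-G had 4 probe sets each, and the other 4 genes had 3 each. No probe set used here named several of these genes at once. The CT45A1 overexpression group was NCI-H292 stably transfected with CT45A1 joined to the fluorescent protein Venus, on 3 arrays. The CT45A1 negative group was the same line stably transfected with the Venus vector alone, on 3 arrays. Both groups thus carried Venus and had been grown in DMEM with serum. Whether each group was 1 clone or a pool, and whether replicates were separate cultures, is not stated in the sources used here, so each p-value speaks only to variation among these 6 arrays, part or all of which may be technical.

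Class I molecules are surface proteins that show peptides from inside the cell to cytotoxic T cells. Each consists of a heavy chain, encoded in the major histocompatibility complex, and the small invariant chain beta2-microglobulin, the product of B2M, without which most heavy chains do not reach the surface. HLA-B and HLA-C are classical heavy chains, highly variable between people. HLA-E, HLA-F and HLA-G vary little, and HLA-E and HLA-G are best known as ligands of inhibitory receptors on natural killer and other immune cells. Transcription of the classical genes can be raised by interferons and by NF-kB.

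Levels below are MAS5 signals on a linear scale, and differences are log2 values of overexpression minus negative. Array medians were 79.2 to 83.3 with overexpression and 72.6 to 75.6 in the negative group, a log2 difference of 0.14, although the 2% trimmed mean was 500.1 on every array. The 2 probe sets of the CT45 family gave signals of 154 to 700.1 with overexpression, against 1.95 to 36.3 in the negative cells. The ratio of the actin 3' to the actin 5' control probe set reflects RNA integrity and labelling length. It was 1.42 to 1.55 on the overexpression arrays and 1.64 to 1.91 on the negative ones, without overlap. The same ratio for GAPDH was 0.97 to 1.04 with overexpression and 1.05 to 1.18 in the negative group, also without overlap. Epithelial markers had a summed signal of 73874 to 75188 with overexpression and of 75460.1 to 82341 without, with all 6 genes bright enough to test. The 18 probe sets of 9 leukocyte markers summed to 915 to 954 with overexpression and 784 to 926 without, and no probe set of PTPRC, which encodes the pan-leukocyte marker, was bright enough to test. Markers of endothelium summed to 665 to 716 with overexpression and 451 to 587 without, with 2 of 4 genes bright enough to test, and those of fibroblasts to 260.3 to 360.5 with overexpression and 213 to 303 without, with none of 4 bright enough. The 4 tested leukocyte probe sets and the 4 tested endothelial ones had median differences of 0.43 and 0.44, all above 0, and none was called. The sole marker call was KRT18, an epithelial keratin, which fell by 0.25 at 201596_x_at (SE 0.06, limma adjusted p = 0.0393). The part of these markers in the heavy chain differences was not tested. The 3 arrays per group limit the precision of every comparison.

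HLA-B and HLA-C were higher in CT45A1 overexpression at each of their probe sets, HLA-F and HLA-G at 1 probe set each, and neither HLA-E nor B2M was called. Of the 20 probe sets, 19 had a signal above the array median on at least 3 of the 6 arrays and were tested. The exception was a dim HLA-F probe set. In limma over 27618 probe sets, with Benjamini-Hochberg adjustment, 9 of the 19 passed an adjusted p of 0.05, against 3.23% of all probe sets tested. All 9 were higher, against 1.89% called higher over the whole array, and none was lower, against 1.34%. At an unadjusted p under 0.05 the counts were 13 higher and 0 lower, against 12.2% higher and 8.5% lower over all probe sets tested, or 20.7% together. Among the 16 tested heavy chain probe sets the median difference was 0.38, against 0.03 over all probe sets tested, and 15 lay above 0. Groups did not overlap, with overexpression higher, at 11 of these 16, against 15.2% of all probe sets tested. In bulk RNA, more cells with a transcript and more transcript per cell cannot be told apart.

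**Figure D1:**
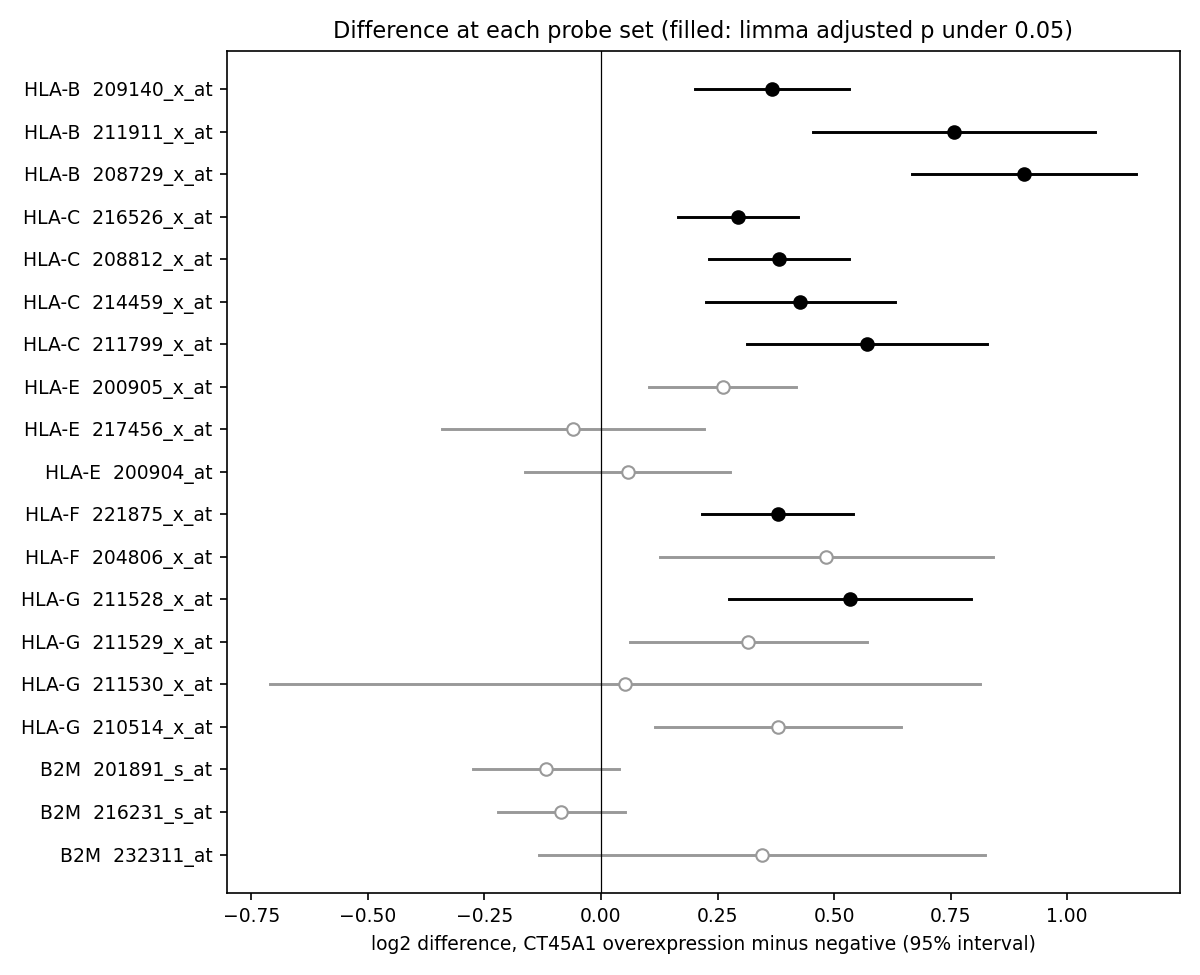
The log2 difference (overexpression minus negative) at each of the 19 tested probe sets is plotted with its 95% interval from limma, and filled points passed an adjusted p of 0.05. All 3 HLA-B and all 4 HLA-C points are filled, as are 1 of HLA-F and 1 of HLA-G, while those of HLA-E and B2M are open.

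The names of the probe sets set a limit on which gene each signal belongs to. Of the 16 tested heavy chain probe sets, 15 had an identifier ending in _x_at, which marks probes that can match several transcripts, and all 9 that were called were among them. The remaining one, 200904_at of HLA-E, was not called. Class I heavy chain genes resemble each other closely, so these 9 calls are not 9 independent measurements, and a rise of 1 gene could not be told apart from that of a relative.

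HLA-B, a classical heavy chain, had the largest differences. Probe set 208729_x_at had signals of 2051, 1855 and 1794 with overexpression, against 891, 991 and 1171 in negative cells. Every overexpression array lay well above the highest negative one. The difference was 0.91 (SE 0.11, limma adjusted p = 0.00439), or 1.88-fold. Probe set 211911_x_at had signals of 3200.3, 3166 and 2486 with overexpression, against 1467, 2100.0 and 1691 without. These groups were also apart, with overexpression replicate 3 the closest to the negative arrays. The difference was 0.76 (SE 0.14, limma adjusted p = 0.0199). The brightest, 209140_x_at, had signals of 7501, 7031 and 8125 with overexpression and 6259, 5819 and 5493 without, also apart. Its difference was 0.37 (SE 0.07, limma adjusted p = 0.0307), the smallest of the 3.

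HLA-C, the other classical heavy chain and a main ligand of killer cell immunoglobulin-like receptors, was higher at all 4 of its probe sets. Probe set 211799_x_at had signals of 1073, 900.0 and 1051 with overexpression and 689.9, 596 and 754 in negative cells. The difference was 0.57 (SE 0.12, limma adjusted p = 0.0307), and the groups were apart. Probe set 214459_x_at had signals of 6453, 5749 and 7402 with overexpression and 5114, 4559.7 and 4842 without. It differed by 0.43 (SE 0.09, limma adjusted p = 0.0366), and overexpression replicate 3 stood above its group. Probe set 208812_x_at had signals of 7688, 7699 and 8774 with overexpression and 6115, 6116 and 6276 without. Here the negative arrays lay close together and the difference was 0.38 (SE 0.07, limma adjusted p = 0.0184). Probe set 216526_x_at had signals of 10679.6, 10369.6 and 9931 with overexpression and 8569, 8130.4 and 8560.1 without. It had the smallest difference of the 4, 0.29 (SE 0.06, limma adjusted p = 0.0274). At both HLA-B and HLA-C the difference was smaller at each brighter probe set, from 0.91 to 0.37 and from 0.57 to 0.29. The tested HLA-F probe sets ran the same way, from 0.48 to 0.38. At HLA-E and HLA-G the brightest probe set had instead the largest difference of its gene, 0.26 and 0.53. Signals of different probe sets are not levels of different transcripts, and this order was not tested.

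**Figure D2:**
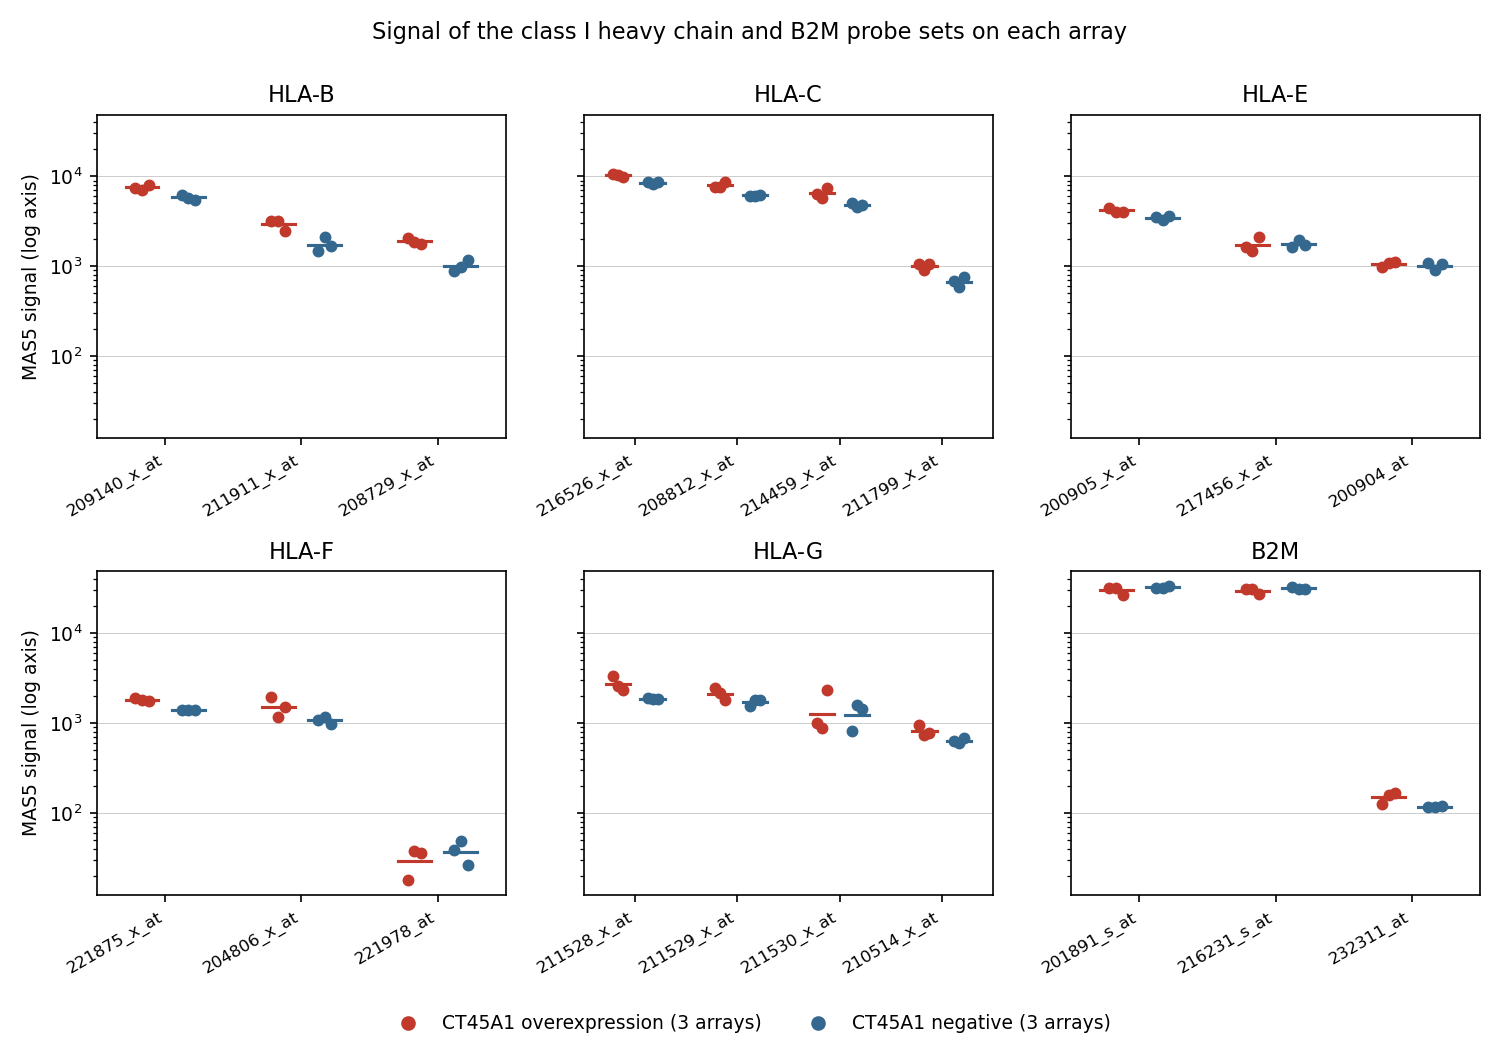
Each point is the MAS5 signal of 1 array on a log axis, with a line at the geometric mean of each group, for the 20 probe sets by gene. Overexpression points lie above negative ones at each HLA-B and HLA-C probe set, overlap at 2 of 3 for HLA-E, and sit near the top of the axis for both groups at the 2 bright B2M probe sets.

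HLA-F, a nonclassical heavy chain that can appear on the surface without peptide, passed at 1 of its 2 tested probe sets. Probe set 221875_x_at had signals of 1882, 1829 and 1769 with overexpression, against 1408, 1412 and 1393 in negative cells. Arrays within each group were tightly grouped, and the difference was 0.38 (SE 0.07, limma adjusted p = 0.0252). Probe set 204806_x_at had signals of 1928, 1155 and 1524 with overexpression and 1087, 1179.6 and 969 without. Overexpression replicate 2 lay inside the negative range, and the difference of 0.48 (SE 0.16) had a limma adjusted p of 0.128. The third, 221978_at, was dim in both groups, at 17.96, 37.9 and 35.7 with overexpression and 38.4, 48.8 and 26.8 without, and was not tested.

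HLA-G, a nonclassical heavy chain found mainly on placental trophoblast, was called at 1 of 4 probe sets. Probe set 211528_x_at had signals of 3327, 2572 and 2316 with overexpression and 1889, 1870.2 and 1844.5 in negative cells. The groups were apart, and the difference was 0.53 (SE 0.12, limma adjusted p = 0.0395). Probe set 210514_x_at had 961, 739.6 and 779 with overexpression and 627, 594 and 675 without. It was also apart but differed by 0.38 (SE 0.12) with a limma adjusted p of 0.112. At 211529_x_at the signals were 2459.8, 2152 and 1827 with overexpression and 1531, 1829 and 1791 without, and overexpression replicate 3 fell just inside the negative range. The difference there was 0.32 (SE 0.11, limma adjusted p = 0.156). The fourth, 211530_x_at, had 1000.2, 882 and 2362 with overexpression and 816, 1595.5 and 1437 without, by far the widest spread of all. Its difference was 0.05, with a 95% interval of -0.71 to 0.81 (limma adjusted p = 0.952), so even a large change either way lay inside its error.

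HLA-E, whose protein presents leader peptides of other class I chains to natural killer cell receptors, was not called at any of its 3 probe sets. In limma 1 of them had an unadjusted p under 0.05. That one, 200905_x_at, had signals of 4479, 4028 and 4061 with overexpression and 3545, 3317 and 3616 in negative cells. The groups were apart, with a difference of 0.26 (SE 0.07, limma adjusted p = 0.0769), and after quantile normalization it passed at 0.30 (limma adjusted p = 0.0489). Probe set 200904_at, the sole tested heavy chain probe set without the _x_at ending, had 990.7, 1095 and 1109 with overexpression and 1100.0, 915 and 1061 without. These values overlapped, and the 95% interval of the difference ran from -0.16 to 0.28 (limma adjusted p = 0.789). Probe set 217456_x_at had 1624, 1466 and 2094 with overexpression and 1646, 1969 and 1743 without, also overlapping. Its difference was -0.06, with an interval of -0.34 to 0.22 (limma adjusted p = 0.831). Whether HLA-E differed from HLA-B in its response was not tested.

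B2M, the invariant light chain, was not called at any of its 3 probe sets, and 0 had an unadjusted p under 0.05 in limma. Probe set 201891_s_at had signals of 31419, 31760.8 and 26611 with overexpression and 31795, 31859.7 and 33466 in negative cells. Overexpression replicate 3 stood below the other arrays, and the groups were just apart, with overexpression lower, as at 11.4% of all probe sets tested. The difference was -0.12, with a 95% interval of -0.27 to 0.04 (limma adjusted p = 0.372). Probe set 216231_s_at had 31009.5, 30902 and 27224 with overexpression and 32246, 30883.5 and 31258 without. The groups overlapped, with a difference of -0.08 and an interval of -0.22 to 0.05 (limma adjusted p = 0.461), and after quantile normalization the difference was 0.020. With arrays centred on their medians both probe sets passed as lower, with 201891_s_at at -0.26 and 216231_s_at at -0.23 (limma adjusted p = 0.0223 and 0.0285). Without overexpression replicate 3 the differences were -0.035 and -0.023. Only 0.434% and 0.460% of tested probe sets had a higher mean log2 signal than these, so both were near the top of the array's range. The dim probe set 232311_at had 127, 158 and 167 with overexpression and 116, 118 and 119 without. It lay higher on all overexpression arrays, by 0.35, with a wide interval of -0.13 to 0.82 (limma adjusted p = 0.392).

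Averaged over the tested probe sets of each gene, the arrays kept the groups apart for HLA-B, HLA-C, HLA-F and, narrowly, HLA-G. Of all single probe sets tested, 15.2% were apart with overexpression higher, and the share over gene means was not computed. The centred mean log2 signal of HLA-B was 0.42, 0.33 and 0.27 on the overexpression arrays and -0.45, -0.26 and -0.31 on the negative ones. That of HLA-C was 0.23, 0.11 and 0.29 with overexpression and -0.18, -0.29 and -0.16 without. Both genes had every overexpression array above 0 and every negative array below it. HLA-F had 0.42, 0.03 and 0.20 with overexpression and -0.21, -0.14 and -0.30 without. HLA-G had 0.25, -0.03 and 0.25 with overexpression and -0.35, -0.06 and -0.07 without. Overexpression replicate 2 was the lowest of its group for HLA-C, HLA-E, HLA-F and HLA-G, but not for HLA-B or B2M. HLA-E ran from -0.03 to 0.15 with overexpression and from -0.07 to -0.02 without, and its groups overlapped. For B2M the values ran from -0.02 to 0.10 with overexpression and from -0.04 to -0.004 without, which overlapped as well. That mean gave equal weight to the 2 bright B2M probe sets, at -0.12 and -0.08, and to the dim 232311_at, at 0.35. Opposite directions thus partly cancelled in it. With these means tested in limma over 11895 genes, of which 2.84% passed, HLA-B differed by 0.68 (adjusted p = 0.00369) and HLA-C by 0.42 (adjusted p = 0.0175). HLA-F and HLA-G did not pass, at 0.43 (limma adjusted p = 0.056) and 0.32 (limma adjusted p = 0.138).

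**Figure D3:**
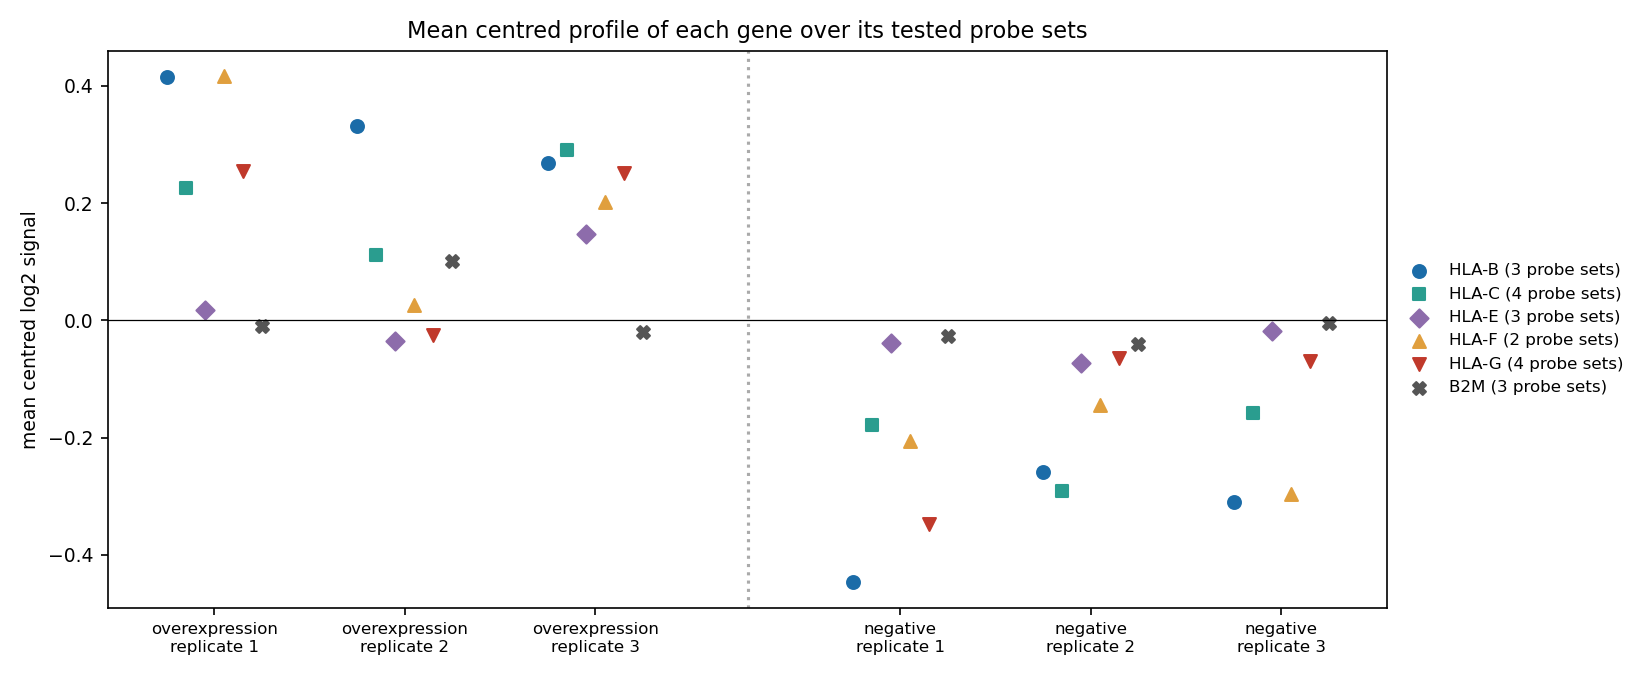
Each point is the mean centred log2 signal of 1 gene on 1 array, over its tested probe sets, with the overexpression arrays left of the dotted line. HLA-B spans 0.42 to -0.45 across the arrays, while HLA-E and B2M stay close to 0. For HLA-E and B2M the mean joins probe sets that differed in opposite directions.

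The calls depended on single arrays and on the variance model more than the differences did. With 1 array left out, between 1 and 6 of the 19 probe sets passed. Of all probe sets tested, 0.565% to 4.17% passed in these fits, against 3.23% with all arrays. HLA-B 208729_x_at passed each time, with differences of 0.82 to 1.01. Without the variance trend none passed (13 at an unadjusted p under 0.05), while 0.0145% of all probe sets did. When the actin ratio entered the fit as a covariate, 2 passed, HLA-B 208729_x_at at 1.08 and HLA-C 208812_x_at at 0.50, against 2.54% of all probe sets. In that fit the difference was 0.47 at HLA-B 211911_x_at and 0.29 at HLA-G 211528_x_at, against 0.76 and 0.53 without the covariate, and 0.11 at the uncalled HLA-F 204806_x_at, against 0.48. Centring each array on its median lowered every difference by 0.14. In that scaling 4 heavy chain probe sets, 2 of HLA-B, 1 of HLA-C and 1 of HLA-G, were still higher, and both bright B2M probe sets passed as lower, as given above. Over the whole array that centring gave 387 higher and 2588 lower calls, against 522 and 370 as deposited.

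**Figure D4:**
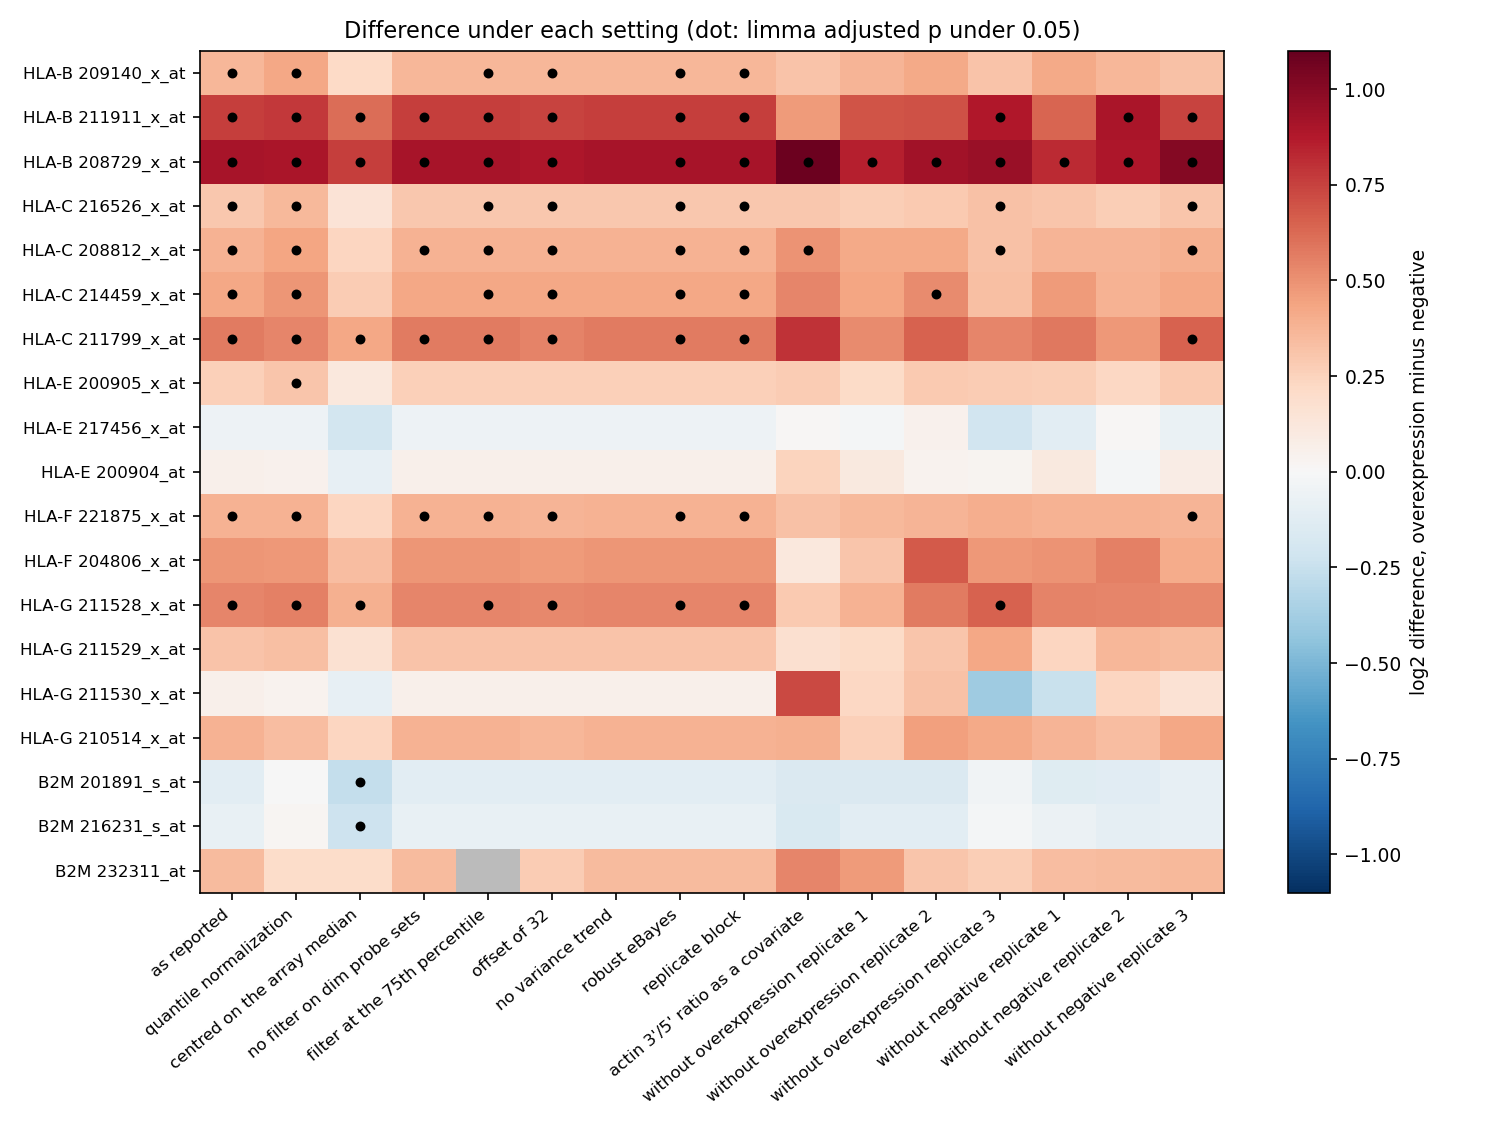
Colour gives the log2 difference (overexpression minus negative) of each of the 19 tested probe sets under each setting, dots mark a limma adjusted p under 0.05, and a grey cell was not tested. The HLA-B and HLA-C rows stay on the higher side in every column, while the dots thin out when an array is left out.

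The promoters of these genes are shown because 4 heavy chain genes had called probe sets and B2M, which shares several of their regulators, had none. The stretches run from base -190 to base -41 before the RefSeq transcription start (build GRCh38.p14), 5' to 3' on the gene's own strand. They lie at chr6:31357220-31357369 (minus strand) for HLA-B, chr6:31272133-31272282 (minus strand) for HLA-C, chr6:29723244-29723393 (plus strand) for HLA-F, chr6:29827635-29827784 (plus strand) for HLA-G and chr15:44711327-44711476 (plus strand) for B2M. No window was shown for HLA-E. They are reference sequences, and the alleles of NCI-H292 were not read. Capitals mark letters that match, on either strand, the NF-kB decamer, the interferon-stimulated response element (ISRE) as GAAANNGAA or GAANNGAAA, the cyclic AMP response element core TGACG, or the CCAAT box.
HLA-B: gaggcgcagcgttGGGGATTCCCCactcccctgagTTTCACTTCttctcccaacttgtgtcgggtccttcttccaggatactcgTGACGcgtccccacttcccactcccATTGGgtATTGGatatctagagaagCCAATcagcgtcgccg
HLA-C: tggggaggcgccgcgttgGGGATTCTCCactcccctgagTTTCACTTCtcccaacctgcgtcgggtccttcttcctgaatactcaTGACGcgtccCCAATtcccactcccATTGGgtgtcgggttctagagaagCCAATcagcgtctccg
HLA-F: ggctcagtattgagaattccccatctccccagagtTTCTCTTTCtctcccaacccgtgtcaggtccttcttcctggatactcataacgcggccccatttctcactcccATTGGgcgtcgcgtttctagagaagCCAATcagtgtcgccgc
HLA-G: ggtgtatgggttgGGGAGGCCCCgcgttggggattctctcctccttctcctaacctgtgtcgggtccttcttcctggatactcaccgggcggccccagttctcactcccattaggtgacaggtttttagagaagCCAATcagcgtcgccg
B2M: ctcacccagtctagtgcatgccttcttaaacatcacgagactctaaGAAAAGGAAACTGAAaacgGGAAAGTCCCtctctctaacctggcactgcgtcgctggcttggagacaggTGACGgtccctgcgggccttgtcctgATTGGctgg

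HLA-B and HLA-C, called at every probe set, held an NF-kB match, an ISRE match (GAANNGAAA) and TGACG in the same order. In HLA-B these began at bases -177 (with a second, overlapping NF-kB match at -176), -155 and -106, and in HLA-C at -172, -151 and -105. HLA-F held an ISRE match of the form GAAANNGAA at -155 and no match to NF-kB or TGACG. HLA-G held an NF-kB match at -177 and neither ISRE form nor TGACG, in the window nearest its coding start of 3 listed, and the other 2 windows held none of the motifs. B2M held 2 ISRE matches (GAAANNGAA) that share bases, at -144 and -138, an NF-kB match at -125 and TGACG at -75. Every stretch shown held a CCAAT box on one strand or the other. Of 35116 RefSeq promoter windows of 300 bases, 11.3% held the NF-kB decamer, 8.11% GAAANNGAA, 7.66% GAANNGAAA, 24.6% TGACG and 34.6% CCAAT. Over the whole 300 bases the HLA-B window was 88.5% identical to that of HLA-C in a global alignment, 79.7% to HLA-F and 74.5% to HLA-G. The B2M window was 49.4% to 52% identical to the 4 heavy chain windows. A match describes the letters and shows no binding.

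Peptide loading genes gave 1 call in each direction, and genes of the immunoproteasome and its activator gave none. Of 26 tested probe sets of the 9 peptide loading genes, 1 was higher and 1 lower, against 1.89% and 1.34% over the array, with a median difference of -0.03. At an unadjusted limma p under 0.05, 4 were higher and 6 lower, a share above the 20.7% of all probe sets. CANX, a chaperone of newly made heavy chains, rose at 208853_s_at by 0.44 (SE 0.09, limma adjusted p = 0.0298), with signals of 4245, 4221 and 3654 with overexpression against 3187, 3076 and 2698 in negative cells. PDIA3, the disulfide isomerase of the loading complex, fell at 208612_at by 0.78 (SE 0.08, limma adjusted p = 0.00154), with 4099, 3605 and 3828 in overexpression against 6081, 6788 and 6995 in negative cells. Other tested probe sets of these genes were not called, with differences of -0.03 to 0.17 for CANX and 0.01 to 0.06 for PDIA3. None of 4 tested probe sets of immunoproteasome and proteasome activator genes passed in limma. PSMB9 alone, with a difference of 0.20, had an unadjusted limma p under 0.05, against 20.7% of all probe sets tested.

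Regulators of class I transcription likewise gave 1 call in each direction. Of 27 tested probe sets of 12 such genes, 1 was higher and 1 lower, and the median difference was 0.12, against array shares of 1.89% and 1.34%. At an unadjusted limma p under 0.05, 7 were higher, a share above the 12.2% of all probe sets tested. At that threshold 2 were lower, against 8.5%. RELA, the NF-kB subunit that activates transcription, rose at 209878_s_at by 0.76 (SE 0.15, limma adjusted p = 0.0298), and its other probe set differed by 0.21 (limma adjusted p = 0.156). IRF2, a factor that binds the ISRE, fell at 203275_at by 0.49 (SE 0.11, limma adjusted p = 0.0432). NLRC5, the transactivator of class I genes, was chosen after its value was seen. It differed by 0.83 (SE 0.22) at 226474_at without passing (limma adjusted p = 0.0656), although its overexpression arrays all lay above the negative ones.

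Relatives of the heavy chains gave 1 call. Of 25 tested probe sets of 7 class I related genes, 1 was higher and none lower, against 1.89% and 1.34% over the array. Their median difference was 0.23, and HFE supplied more of these probe sets than any other gene, mostly ones ending in _x_at. At an unadjusted limma p under 0.05, 5 were higher and 1 lower, against 12.2% and 8.5% of all probe sets tested. ULBP2, a ligand of the activating natural killer receptor NKG2D, rose at 221291_at by 0.65 (SE 0.11, limma adjusted p = 0.016), with signals of 956, 870.4 and 755 with overexpression against 519, 550.4 and 568 in negative cells. Its other probe set differed by -0.09 (limma adjusted p = 0.685). None of 10 tested class II probe sets passed, and 1 had an unadjusted limma p under 0.05. None of 8 tested probe sets of surface turnover genes passed either, and 1 had an unadjusted limma p under 0.05. Over all probe sets tested that share was 20.7%. No probe set of 8 receptors that bind class I on lymphocytes was bright enough to test.

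**Figure D5:**
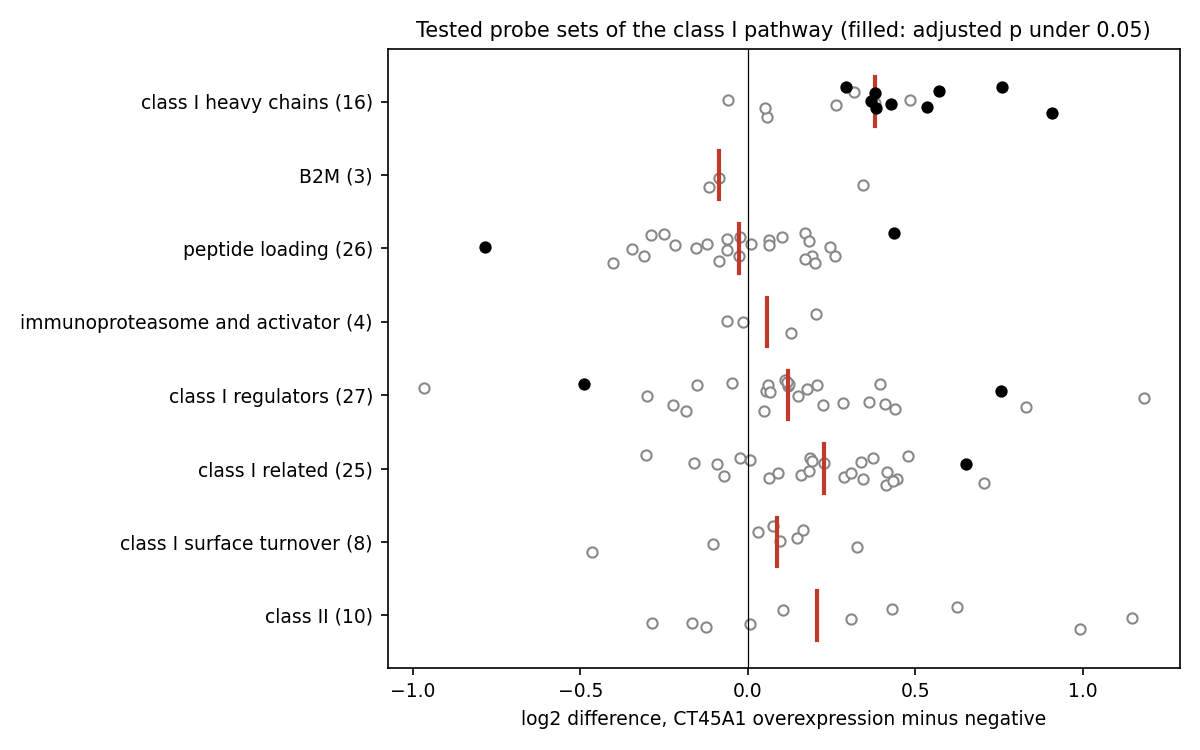
Each point is the log2 difference (overexpression minus negative) of 1 tested probe set, by group with the number of probe sets in brackets, the bar is the group's median, and filled points passed a limma adjusted p of 0.05. Heavy chains have 9 filled points on the higher side and a median of 0.38, and the other groups plotted, which include no marker list, have medians between -0.08 and 0.23.

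Genes with a profile close to that of the heavy chains over the 6 arrays were ranked by the root mean square difference from the mean centred profile of the 16 heavy chain probe sets. The closest of 11889 genes was GPS2, a subunit of a nuclear corepressor complex, at 0.029 on the log2 scale, where the median over all genes was 0.252. GPS2 had signals of 1095, 964 and 1060.2 with overexpression and 778, 799 and 780.5 without. The ranking used all 6 arrays, so its group difference and its low overexpression replicate 2 came with the choice. SLC37A1, a sugar phosphate transporter of the endoplasmic reticulum, followed at 0.038. MTMR1, a phosphoinositide phosphatase, stood at 0.041, and the pseudogene BMS1P2 and RADX, a single-stranded DNA binding protein of replication forks, each at 0.044. GPS2 and MTMR1 passed in limma (adjusted p = 0.0423 and 0.0229), while SLC37A1, BMS1P2 and RADX did not (adjusted p = 0.102, 0.108 and 0.143). The same arrays set the ranking, so these p-values lend it no support.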

How the data were processed

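Total RNA from NCI-H292 cells was hybridised to 6 arrays after 3' IVT labelling, per the labels' protocols. The authors deposited 1 linear intensity per probe set and array, a MAS5 signal. The submitters' processing notes name MAS5 and affy, and their versions are not given in the sources used here. Groups came from the sample titles.

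No signal was 0 or below, so log2 was taken of each as deposited. After 62 control probe sets were removed, those above the array median on at least 3 of 6 arrays were tested (27618 of 54613). Limma fitted 1 mean per group, with eBayes and a variance trend, two-sided, with Benjamini-Hochberg adjustment over all probe sets tested. The fit was tested on simulated data. Symbols came from the platform annotation, which can be old, updated through RefSeq (GRCh38.p14), and 41091 probe sets had 1 symbol, 1801 several and 11721 none. The members, lists and alternatives were chosen with earlier results of these data known. Every member probe set is named, and from each list the called probe sets with the largest differences, up to 4. Signals were read as relative within a probe set, with no detection calls. Same-numbered arrays of the 2 groups had correlated deviations of -0.01, -0.01 and 0.10, so the numbers were not taken as pairs. Software was limma 3.58.1 in R 4.3.3, and pandas 2.3.3, Biopython 1.88 and matplotlib 3.10.9 in Python 3.11.15.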

Additional observations from a re-analysis of the deposited data

How the results depend on the processing

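The 9 calls among 19 member probe sets (3.23% over the array) became 10 after quantile normalization (2.82%), with HLA-E 200905_x_at gained. After centring on the array median they became 6 (10.8%). They were 9 of 18 with a filter at the 75th percentile (6.74% over the array). The count stayed 9 with an offset of 32 (3.52%), with robust eBayes (3.44%) and with the replicate number as a block (4.31%). It became 5 of 20 without a filter on dim probe sets (0.89%). Without the variance trend it was 0 (0.0145%), with 13 at an unadjusted limma p under 0.05. With the actin ratio as a covariate it was 2 (2.54%). Of 2 tested probe sets ending in neither _x_at nor _s_at, 0 passed (0 at an unadjusted limma p under 0.05). With 1 probe set per gene 4 of 6 genes passed (3.84% of all genes), and with all probe sets of a gene averaged 2 of 6 (2.84%). Without overexpression replicate 1, 2 or 3 the count was 1, 2 or 5, and without negative replicate 1, 2 or 3 it was 1, 2 or 6. In these fits 0.565% to 4.17% of all probe sets tested passed.

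Over the whole array the 892 calls became 780 after quantile normalization, 2975 after centring, 486 without a filter, 4 without the variance trend, and 156 to 1152 with 1 array left out. The replicate block gave 1189, and it changed no member's call.

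Of 286 values of single member probe sets, 212 kept their direction and their side of the threshold, 62 lost the call in the same direction, 3 gained one and 9 changed direction. None of these 9 was of a called probe set. HLA-E 217456_x_at differed by 0.014 with the actin covariate and by -0.21 to 0.050 with 1 array left out, above 0 without overexpression replicate 2 or negative replicate 2. HLA-E 200904_at differed by -0.088 after centring and by -0.023 to 0.11 with 1 array left out, below 0 without negative replicate 2. HLA-G 211530_x_at differed by -0.093 after centring and by -0.39 to 0.32 with 1 array left out, below 0 without overexpression replicate 3 or negative replicate 1. B2M 216231_s_at differed by 0.020 after quantile normalization. The causes were not tested. HLA-B 208729_x_at passed in 14 of 15 alternatives. The other 8 called probe sets passed in 5 to 10 of 15, with the highest adjusted p, 0.476, for HLA-G 211528_x_at. The arrays give no detection calls, so signal over background could not be stated for the dim HLA-F probe set.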

Other observations

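Class I region transcripts that are not heavy chain genes or B2M were read after the values above had been seen. HLA-J, a transcribed class I pseudogene, had signals of 908, 871 and 758 with overexpression and 658, 648 and 559.7 in negative cells. Its arrays did not overlap, and the difference of 0.44 (SE 0.11) had a limma adjusted p of 0.0605. Its probe set also ends in _x_at. The tested probe set of HLA-F-AS1, an RNA antisense to HLA-F, had signals of 903, 882 and 510.4 with overexpression and 701, 911 and 916 without, which overlapped. HCG4, a noncoding transcript of the same region, differed by 0.04 (SE 0.23, limma adjusted p = 0.947).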
